A study of Mus musculus with 12 samples.

Results

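Star strands are the less favoured arm of a microRNA (miRNA) hairpin, written with an asterisk in the older nomenclature that these arrays used. The mouse part of the array tables held 121 star-strand probe sets among 717 probe sets for mature miRNAs, and 112 of them are described here. They were picked by a rule on their names, set with earlier results of these data known. The stars of miR-10b, miR-16, miR-21, miR-24-2, miR-27a, miR-27b, miR-30c-2, miR-181a-2 and miR-503, 9 in all, were left out of the description but kept in every fit. Each star was set beside the plain strand of its own hairpin, the strand without the asterisk. A plain partner was found for 110 of the 112, and these made use of 108 distinct plain probe sets, because let-7c and miR-218 each served 2 stars. MiR-125b* and miR-1982* had none under the naming rule.

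RNA came from NIH3T3 cells, an established line of mouse embryonic fibroblasts, grown in medium with serum. Cells were taken before treatment (0 h) or after 2, 5 or 10 h with 2 μg per ml tunicamycin, which blocks N-linked glycosylation and so causes stress of the endoplasmic reticulum. Each of the 4 time points had 3 GeneChip miRNA arrays, 12 in all, and all cells were of the same line with no genetic change named. There were no untreated arrays at 2, 5 or 10 h, so tunicamycin and time in culture cannot be told apart. The sources used here do not tie the 3 arrays of a time point to separate cultures, so the p-values below speak only of the spread from array to array, and that spread may be technical.

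A miRNA hairpin is cut by Drosha in the nucleus and by Dicer in the cytoplasm into a short duplex with a 5p and a 3p strand. One strand is loaded into an Argonaute protein and guides it to messenger RNAs through its seed, the bases near its 5′ end, while the other strand is mostly degraded. Loading favours the strand whose 5′ end is less firmly paired, with U or A as its first base in many guides, but both strands of some hairpins are stable, and which one dominates can differ between tissues. Each cut precursor gives one star and one plain strand, so the comparison of their changes asks whether products of the same hairpin moved together. Some plain strands are also made from further hairpins of the same name: RefSeq placed the plain strand at more than 1 locus in 15 of the 94 pairs for which it held one, those of miR-29b*, miR-9*, miR-92a* and miR-24-1* among them. In these pairs the plain probe set does not read the star's hairpin alone. Loci were matched by name alone, so a sequence shared with a miRNA of another name was not looked for, for miR-199b or any other pair.

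The following strands carry the results below. They are printed 5′ to 3′ from RefSeq (GRCm38.p6) with the seed, bases 2 to 8, in capitals. The deposited tables give neither the probe sequence nor the arm, so each star was assigned to its arm by its later miRBase name. In the first set the star was brighter than the plain strand on every array.
miR-140* (miR-140-3p): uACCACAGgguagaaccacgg
miR-193* (miR-193a-5p): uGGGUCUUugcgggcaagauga
miR-193 (miR-193a-3p): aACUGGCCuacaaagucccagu
miR-872* (miR-872-3p): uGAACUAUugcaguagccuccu
miR-872 (miR-872-5p): aAGGUUACuuguuaguucagg
miR-9* (miR-9-3p): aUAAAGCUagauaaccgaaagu
miR-9 (miR-9-5p): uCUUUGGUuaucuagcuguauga
MiR-140* lies at chr8:107551288-107551308 (plus strand) inside the Wwp2 gene, miR-872* at chr4:94665206-94665227 (plus strand) inside Ift74, and miR-193* at chr11:79711975-79711996 (plus strand) in no annotated host gene. MiR-9* is encoded by 3 hairpins, at chr13:83738858-83738879, chr3:88215652-88215673 and chr7:79505318-79505339, all on the plus strand and each within a long non-coding RNA gene (C130071C03Rik, Gm3764 and Mir9-3hg).

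In the second set the log2 values of the 2 strands of a hairpin changed by different amounts during the time course. The plain strands miR-17, miR-106b and miR-93 share 1 seed, AAAGUGC, and miR-18a has a close relative of it, AAGGUGC, whereas the 4 stars have 4 different seeds.
miR-17* (miR-17-3p): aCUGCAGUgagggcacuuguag
miR-17 (miR-17-5p): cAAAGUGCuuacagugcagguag
miR-18a* (miR-18a-3p): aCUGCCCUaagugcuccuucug
miR-18a (miR-18a-5p): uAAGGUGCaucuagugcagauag
miR-106b* (miR-106b-3p): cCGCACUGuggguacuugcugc
miR-106b (miR-106b-5p): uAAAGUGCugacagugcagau
miR-93* (miR-93-3p): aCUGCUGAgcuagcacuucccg
miR-93 (miR-93-5p): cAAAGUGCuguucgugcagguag
miR-214* (miR-214-5p): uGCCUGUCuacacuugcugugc
miR-214 (miR-214-3p): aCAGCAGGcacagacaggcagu
miR-28* (miR-28a-3p): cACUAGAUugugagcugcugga
miR-28 (miR-28a-5p): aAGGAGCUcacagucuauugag
miR-322* (miR-322-3p): aAACAUGAagcgcugcaacac
miR-322 (miR-322-5p): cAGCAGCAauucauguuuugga
miR-34c* (miR-34c-3p): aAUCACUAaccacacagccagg
MiR-17* (chr14:115043721-115043742) and miR-18a* (chr14:115043908-115043929) lie together on the plus strand. MiR-106b* (chr5:138165746-138165767) and miR-93* (chr5:138165536-138165557) lie on the minus strand within Mcm7. MiR-214* (chr1:162223397-162223418, plus strand) lies where Dnm3 and the antisense RNA Dnm3os overlap, and miR-28* (chr16:24827908-24827929, plus strand) within Lpp. MiR-322* (chrX:53054269-53054289, minus strand) lies within C430049B03Rik, and miR-34c* (chr9:51103044-51103065, minus strand) lies where the spans of Hoatz and Btg4 overlap.

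The values are log2 intensities per probe set and array, normalised by the authors. With no detection calls in the tables, each array was given its own background limit, its most frequent value plus 3 times the spread below that value. This limit lay between 2.95 and 3.21. On single arrays 54 to 59 of the 112 stars were above it. All 6 fibroblast marker miRNAs (miR-21, both miR-199a strands, miR-214, miR-143, miR-145) were above the limit on all 12 arrays, with means at 0 h from 8.43 to 13.61. Of 6 blood markers none was above it on all 12, and of 5 nerve markers 1 was. For muscle it was 1 of 4 markers, and the 1 liver marker was not. None of 7 epithelial markers was above it on all 12, though their means at 0 h reached 9.21. The second arrays at 0 h and 5 h deviated together from their companion arrays (correlation of deviations 0.60), and counts without both are given in the closing section. In bulk RNA, fewer cells carrying a strand and fewer copies per cell cannot be told apart.

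Many stars gave a clear signal. Of the 112, 50 (44.6%) were above the background limit on all 12 arrays, 45 (40.2%) were above it on none and 17 on some. Among all mature probe sets 46.9% were above it on all arrays and 36.3% on none, and among all plain probe sets 47.1% were above it on all. The brightest at 0 h was miR-140*, the 3p strand of a miRNA known for its part in cartilage development, with a mean log2 value of 13.97 ± 0.02 (SD, n = 3 arrays). MiR-31* followed at 12.21 ± 0.04, then miR-199b* at 10.24 ± 0.07, miR-28* at 10.01 ± 0.10 and miR-34c* at 9.97 ± 0.05. MiR-99b*, miR-193*, miR-214*, miR-106b*, miR-17*, miR-872* and miR-674* completed the 12 brightest, from 9.53 down to 8.64. The arrays of miR-199b* at 0 h lay above those of miR-28*, whereas miR-28* and miR-34c* differed by less than the spread between arrays.

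Most stars were dimmer than their plain partner. Probe sets respond differently to the same number of molecules, so brightness is set side by side without a test and does not give a ratio of molecules. The median mean over 12 arrays was 3.14 for the stars and 6.65 for the partners, and the median difference, star minus partner, was −2.07 on the log2 scale. The partner was brighter on every array in 67 pairs, the star in 13, and in 30 the order varied. In 43 pairs both strands were above the limit on all 12 arrays, and there the median difference was −3.43. Of these, miR-24-1* had the widest gap, −10.10, and let-7i*, let-7b* and miR-30c-1* followed with −9.42, −8.78 and −8.29. Bright stars came mostly from hairpins with a bright plain strand: partners of stars above the limit on all arrays had a median of 10.35, and partners of stars above it on none had 2.79.

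**Figure D1:**
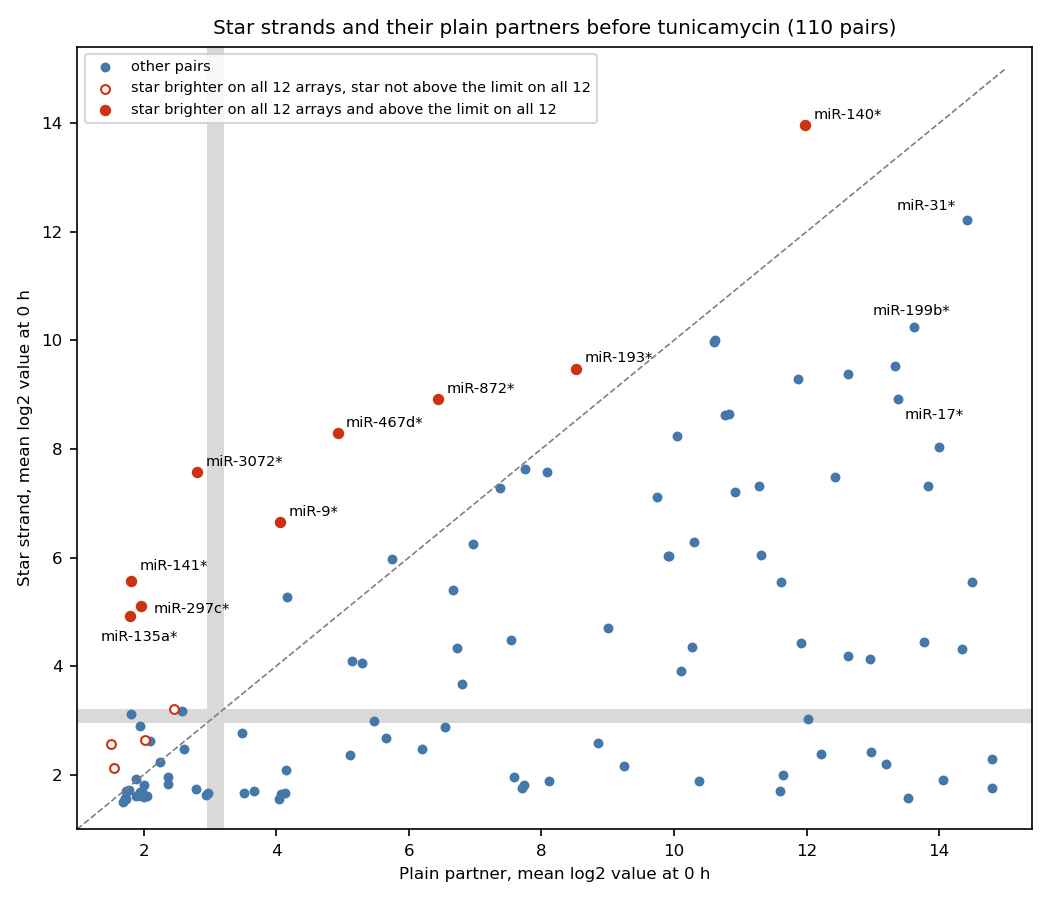
Mean log2 value at 0 h (n = 3 arrays) of each star strand (y axis) against its plain partner (x axis) for 110 pairs. Grey bands mark the range of the background limit (2.95 to 3.21), the dashed line marks equal brightness, and filled red points are the 9 stars that were brighter than their partner on all 12 arrays and above the limit on all 12. MiR-140* is the highest point, at 13.97.

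In 9 hairpins the star was above the limit on all 12 arrays and brighter than the plain strand on each of them. MiR-141*, miR-135a* and miR-297c* lay above plain strands that were below the limit on all 12 arrays, and plain miR-3072 was above it on 4, so in these the star alone gave a measured level throughout and no difference is given. Whether these 4 star probe sets also read other sequences was not tested. The stars had means over 12 arrays of 5.44, 5.31, 4.59 and, for miR-3072*, 7.79. Both strands were above the limit throughout for 4 of the 9, namely miR-467d* (2.99), miR-872* (2.83), miR-140* (2.11) and miR-193* (1.33). The star of miR-9, a miRNA best known from neural development, was 2.57 brighter than its partner, which was above the limit on 11 of the 12 arrays. MiR-133a*, miR-150*, miR-295* and miR-302b* were also brighter on all arrays, but none of them was above the limit on all 12.

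Near equal brightness of both strands was seen for several further hairpins. MiR-28* was 0.43 below miR-28, and miR-7a* was 0.52 below miR-7a. For miR-34c*, miR-30e*, miR-322*, miR-29b*, miR-467b* and miR-299* the order of the strands varied between arrays, with mean differences from −0.38 to 0.90. All 7 members of a list of stars described in other work as guide strands in some tissues (miR-9*, miR-17*, miR-28*, miR-30a*, miR-30e*, miR-140*, miR-199b*) were above the limit on all 12 arrays. The list was chosen with earlier results of these data known, and 44.6% of all 112 stars were above the limit throughout.

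RefSeq held a mature sequence for 74 of 78 stars that could be given an arm. Of the 34 matched stars above the limit on all 12 arrays, 28 (82.4%) came from the 3p arm, compared with 12 of 28 (42.9%) among those above it on none. Of all 74 matched stars, 48 (64.9%) came from that arm. Those 34 are only part of the 50 stars above the limit throughout, and a link of arm and level was not tested. U was the first base of 13 of the 74 stars (17.6%) and of 35 of 69 distinct plain partners (50.7%). C was first in 28 stars and in 8 plain strands. The 74 stars had 68 distinct seeds, and 12 stars shared a seed with 1 other, in the pairs miR-17* and miR-20b*, miR-30a* and miR-30e*, miR-200a* and miR-200b*, let-7b* and let-7c-2*, miR-302b* and miR-302c*, and miR-376b* and miR-376c*. The levels of such a pair could lie far apart, as miR-17* had a mean of 8.93 at 0 h and miR-20b* of 1.69, below the limit on all 12 arrays.

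Few stars changed during tunicamycin, and the changes were small. The 2, 5 and 10 h arrays were each set against those at 0 h in limma, over all 717 mature probe sets. A strand was called where its p, after Benjamini-Hochberg adjustment, was under 0.05. At 2 h, 9 of 112 stars (8.04%) were called, 6 higher and 3 lower, against 13.2% of all mature probe sets (7.39% higher and 5.86% lower). At 5 h, 9 were called, 5 higher and 4 lower, against 8.37% (4.32% higher and 4.04% lower). With the replicate number as a block 5 stars were called at 5 h, without miR-214*, miR-29b*, miR-455* and miR-9* (adjusted p = 0.051 to 0.063). At 10 h, 9 were called, 3 higher and 6 lower, against 12.7% (5.58% higher and 7.11% lower). For any change over time, 16 stars passed the moderated F test (14.3%, against 21.8%). The share of called stars was thus below or near the background at each time. Of their 108 plain partners, 25, 14 and 29 were called at 2, 5 and 10 h (23.1%, 13% and 26.9%). The median log2 change of the stars was 0.04, 0.02 and 0.01, beside 0.03, 0.03 and 0.02 over all mature probe sets.

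In all, 18 different stars were called at 1 or more times, and 17 of them were above the background limit on all 12 arrays. The exception, miR-15b*, was below the limit on every array, with 2.49, 2.26 and 2.48 at 0 h and 1.93, 1.77 and 1.91 at 5 h, so that no fold is given for its call at 5 h (adjusted p = 0.037). The largest called change was 0.81 on the log2 scale. The split of calls depended on the scaling. With each array shifted to 1 median over the mature probe sets, 0 stars were called higher and 2 lower at 2 h. The same split was 0 to 2 at 5 h and 4 to 4 at 10 h. After quantile normalisation it was 5 to 5, 2 to 3 and 5 to 4 at the 3 times. No called star changed its direction under either. An exact permutation test of 3 arrays against 3 cannot give a p below 0.1, so every call rests on a variance that limma pooled over arrays and probe sets. The 3 arrays at 2, 5 and 10 h did not overlap those at 0 h in 26, 21 and 25 of the 112 stars (23.2%, 18.8% and 22.3%), against 30.1%, 21.5% and 28% of all mature probe sets.

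**Figure D2:**
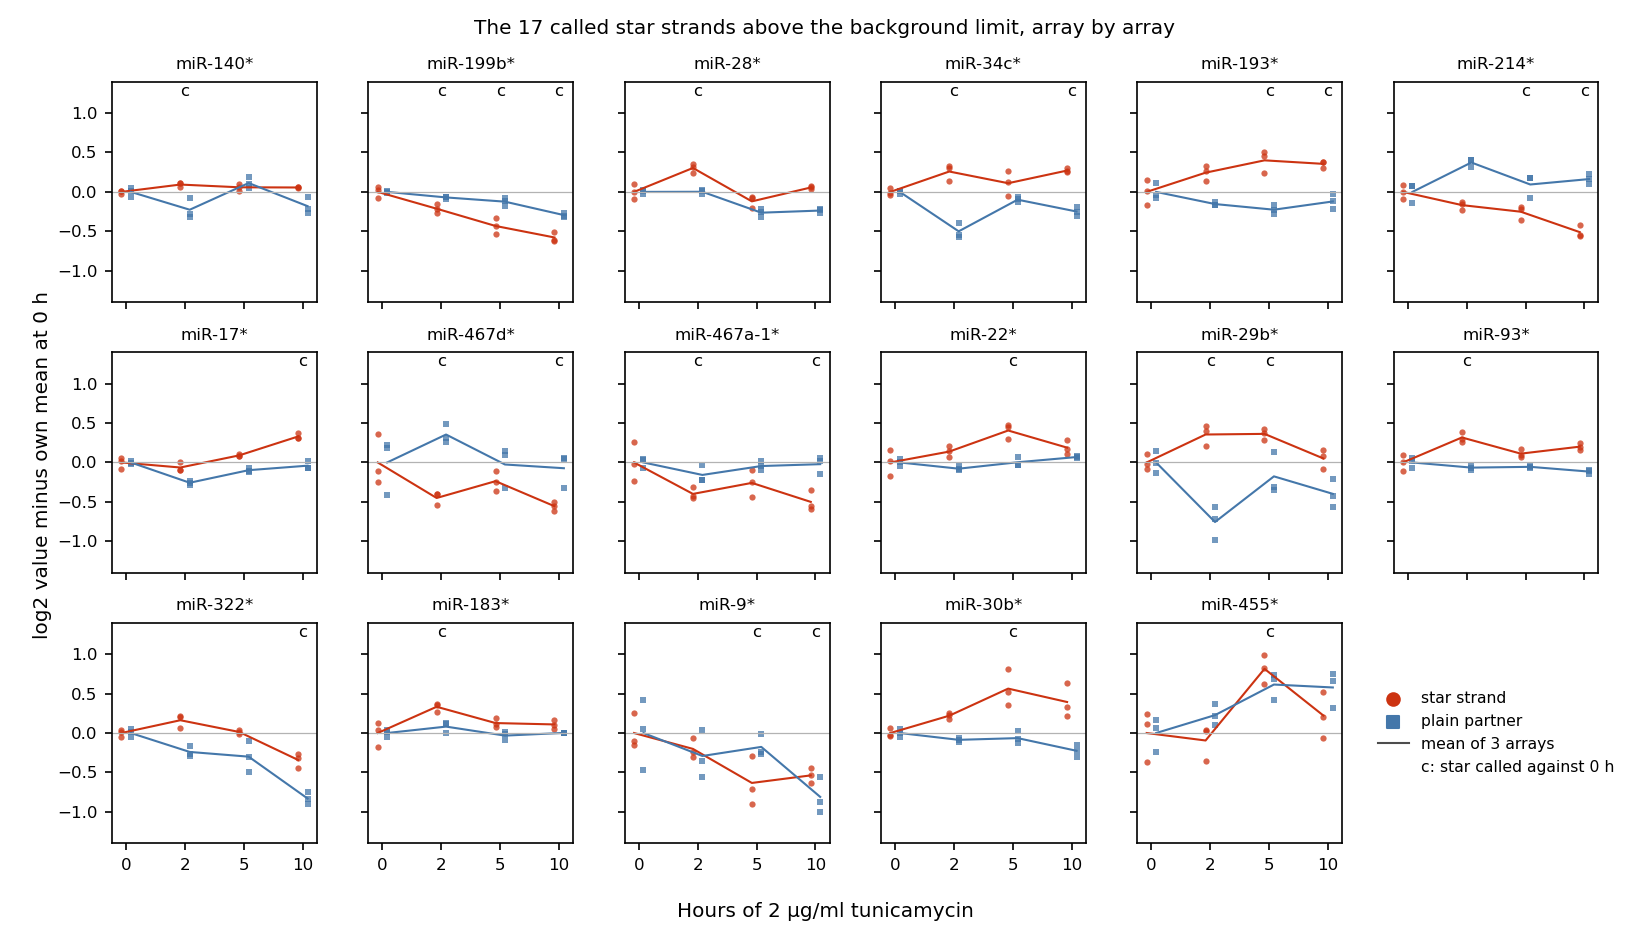
Log2 value of each array minus the strand's own mean at 0 h (y axis) at 0, 2, 5 and 10 h (x axis, evenly spaced) for the 17 called stars above the background limit (red circles) and their plain partners (blue squares). Lines join means of 3 arrays and c marks a time at which the star was called against 0 h. MiR-199b* and miR-214* lie below 0 on all arrays at 10 h, and miR-17* and miR-193* above it.

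The 2 bright stars of the mesenchymal miR-199 and miR-214 hairpins fell. Plain miR-199 and miR-214 are typical of fibroblasts, and miR-214 is made with a copy of miR-199a from the antisense RNA Dnm3os. MiR-199b* measured 10.30, 10.26 and 10.16 at 0 h, 9.97, 10.03 and 10.09 at 2 h, 9.81, 9.71 and 9.91 at 5 h, then 9.74, 9.63 and 9.62 at 10 h. Each later time point lay below 0 h with no overlap. Its log2 value fell by 0.21 at 2 h (standard error, SE, 0.06, adjusted p = 0.034), by 0.43 at 5 h (adjusted p = 0.00041) and by 0.58 at 10 h (adjusted p = 1.2e-05), which is 1.49-fold lower. The 2 h call was lost when any 1 of the first or second arrays at 0 h or 2 h was left out (change −0.26 to −0.18, adjusted p up to 0.14). The calls at 5 and 10 h stayed whichever single array was left out. Its partner miR-199b fell too, by 0.12 at 5 h (adjusted p = 0.019) and, at 10 h, by 0.29 (adjusted p = 6.2e-06), with a value of 13.63 at 0 h.

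MiR-214* measured 9.39, 9.30 and 9.47 at 0 h, then 8.96, 8.84 and 8.83 at 10 h, without overlap. It fell by 0.51 at 10 h (SE 0.07, adjusted p = 0.00011), 1.42-fold, and by 0.25 at 5 h (adjusted p = 0.036). The 10 h call stayed with any 1 array left out, whereas the 5 h call was lost without any 1 array other than the second at 0 h (change −0.29 to −0.20, adjusted p up to 0.14). Plain miR-214 did not fall with its star. It was 12.69, 12.48 and 12.69 at 0 h and 13.03, 12.93 and 13.02 at 2 h, a rise of 0.37 (adjusted p = 0.0023), and was 0.16 higher at 10 h (adjusted p = 0.16). The remaining star of the fibroblast clusters, miR-145*, was below the limit on all arrays while plain miR-145 stood at 13.20 at 0 h.

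MiR-17*, the star of the first miRNA of the growth-promoting miR-17-92 cluster, rose at 10 h. Its values were 8.95, 8.84 and 8.99 at 0 h, 8.93, 8.83 and 8.83 at 2 h, 9.03, 9.01 and 9.01 at 5 h, then 9.24, 9.23 and 9.30 at 10 h. The arrays at 10 h were above all others. The rise was 0.33 (SE 0.06, adjusted p = 0.0017), or 1.26-fold, and stayed called with any 1 array left out. Of the 8 stars of this cluster and its paralogs, 5 were above the limit on all 12 arrays and 2 on none. MiR-93*, from the paralog cluster inside Mcm7, rose at 2 h from 7.57, 7.37 and 7.49 to 7.86, 7.74 and 7.78, without overlap (0.32, SE 0.08, adjusted p = 0.022). That call was lost without the second or the third array at 0 h or the first or the third at 2 h (0.27 to 0.36, adjusted p up to 0.095). MiR-106b*, miR-18a* and miR-92a* were not called at any time.

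Stars of bright hairpins made up most of the other calls at 2 h. MiR-28*, whose hairpin lies inside Lpp, was 10.00, 9.91 and 10.11 at 0 h and 10.33, 10.25 and 10.36 at 2 h. It rose by 0.30 without overlap (SE 0.06, adjusted p = 0.0031) and was the only star whose call at 2 h stayed with any 1 array left out. At 5 h it was back at 9.93, 9.94 and 9.80, within the range at 0 h for all but 1 array. MiR-34c*, the star of a miRNA known as a target of p53, rose from 10.02, 9.95 and 9.93 to 10.27, 10.11 and 10.29 at 2 h (0.26, adjusted p = 0.027) and 10.22, 10.23 and 10.26 at 10 h (0.27, adjusted p = 0.021), without overlap at either time. The 2 h call was lost without the second or the third array at 0 h or the first or the third at 2 h (adjusted p up to 0.11). The 10 h call was lost without the second or the third array of either time (adjusted p up to 0.083).

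MiR-140* rose by 0.09 at 2 h (adjusted p = 0.042), from 13.98, 13.94 and 13.98 to 14.08, 14.02 and 14.08, the smallest of the called changes at 2 h. The call was lost without any 1 array other than the second at 2 h (0.08 to 0.11, adjusted p up to 0.15). MiR-183*, of a cluster known from sensory organs and epithelia, rose from 6.95, 7.25 and 7.17 to 7.48, 7.39 and 7.49 (0.33, adjusted p = 0.036), and this call was lost without any 1 array other than the second at 0 h (0.25 to 0.40, adjusted p up to 0.15). MiR-29b*, from a family whose plain strands repress collagen genes, was 7.73, 7.60 and 7.54 at 0 h, 7.83, 8.08 and 8.01 at 2 h, then 8.05, 8.0 and 7.91 at 5 h. It rose by 0.35 at 2 h (adjusted p = 0.023) and 0.36 after 5 h (adjusted p = 0.031), with no overlap, and was 0.05 above 0 h at 10 h (adjusted p = 0.81). Leaving out the second or the third array at 0 h ended both calls. The 2 h call was also lost without the second or the third array at 2 h (adjusted p up to 0.091), and the 5 h call without the first or second at 5 h (up to 0.12). With each array shifted to 1 median, none of these rises at 2 h was called, and after quantile normalisation miR-140* alone was lost.

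Of the 5 stars called higher at 5 h, miR-29b* alone had also been called at 2 h. MiR-193* was 9.49, 9.31 and 9.64 at 0 h, 9.93, 9.98 and 9.72 at 5 h, then 9.86, 9.78 and 9.86 at 10 h, and at both later times every array was above all at 0 h. It rose by 0.40 at 5 h (SE 0.08, adjusted p = 0.009) and by 0.36 at 10 h (adjusted p = 0.01), or 1.32-fold and 1.28-fold. Only the 5 h call was lost with a single array left out, the second at 5 h (0.32, adjusted p = 0.053). MiR-22* rose from 8.05, 7.87 and 8.20 to 8.51, 8.34 and 8.49 (0.41, adjusted p = 0.014), and its call was lost without the second array at 0 h or the first at 5 h (0.32 to 0.48 over all arrays left out, adjusted p up to 0.066). MiR-30b* rose from 6.0, 6.10 and 6.02 to 6.4, 6.85 and 6.57 (0.56, adjusted p = 0.026), and this was lost without the first or the third array at 0 h or the second at 5 h (0.44 to 0.67, adjusted p up to 0.11).

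MiR-455*, from a hairpin inside the collagen gene Col27a1, had the largest called change. It was 4.81, 4.33 and 4.94 at 0 h and 5.69, 5.32 and 5.52 at 5 h, a rise of 0.81 (SE 0.23, adjusted p = 0.04), or 1.76-fold, without overlap. The call was lost without any 1 array other than the third at 0 h (0.63 to 0.94, adjusted p up to 0.15). The arrays at 10 h, at 5.21, 4.90 and 4.64, overlapped those at 0 h. Its partner miR-455 rose at 5 h as well, by 0.61 (adjusted p = 0.007), and by 0.58 at 10 h (adjusted p = 0.0059). Of the calls at 5 h, those of miR-193*, miR-22*, miR-30b*, miR-455*, miR-29b*, miR-214* and miR-15b* were lost with each array shifted to 1 median, and those of miR-22*, miR-455*, miR-29b* and miR-214* after quantile normalisation.

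MiR-467a-1* and miR-467d*, from the large repeat-like cluster in an intron of Sfmbt2, fell at 2 and 10 h. MiR-467d* was 8.04, 8.65 and 8.19 at 0 h, 7.75, 7.89 and 7.89 at 2 h, then 7.68, 7.79 and 7.74 at 10 h. It fell by 0.45 at 2 h (SE 0.13, adjusted p = 0.027) and by 0.55 at 10 h (adjusted p = 0.0078), with no overlap. The second array at 0 h was the highest, and without it the falls were 0.27 at 2 h, which was not called, and 0.38 at 10 h. The 2 h call was also lost without the first or the third array at 2 h (adjusted p up to 0.11), whereas the 10 h call stayed. MiR-467a-1* was 8.22, 8.49 and 8.01 at 0 h and 7.65, 7.68 and 7.89 at 10 h (−0.50, adjusted p = 0.011, lost without the second array at 0 h or 10 h, adjusted p up to 0.053). Its fall of 0.40 at 2 h (adjusted p = 0.043) was lost without any 1 array other than the third at 0 h (−0.52 to −0.27, adjusted p up to 0.19). Mature strands of this cluster are nearly identical to each other, so the share of each in these signals is uncertain and was not tested. The remaining stars of the cluster, miR-297a*, miR-297c*, miR-467b* and miR-467e*, were not called. At 2 h their changes ranged from −1.55 to −0.87. In all 4 the second array at 0 h was the highest, as in miR-467b*, with 8.17 beside 4.40 and 5.33, and without that array the changes ranged from −0.53 (miR-297a*) to −0.17 (miR-297c*), that of miR-467b* being −0.45.

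MiR-9* and miR-322* completed the falls. MiR-9* was 6.55, 6.91 and 6.51 at 0 h, 5.94, 5.76 and 6.37 at 5 h, then 6.22, 6.12 and 6.02 at 10 h, and neither later time overlapped 0 h. It fell by 0.63 at 5 h (SE 0.17, adjusted p = 0.029) and 0.54 after 10 h (adjusted p = 0.046). The 5 h call was lost without the first or second array of either time (−0.81 to −0.50, adjusted p up to 0.11), and the 10 h call without any 1 of the 6 arrays (−0.61 to −0.41, adjusted p up to 0.17). MiR-322*, the star of an X-linked miRNA whose plain strand represses cell cycle genes, was 7.24, 7.30 and 7.32 at 0 h and 6.97, 6.84 and 7.02 at 10 h. It fell by 0.34 (SE 0.09, adjusted p = 0.021), a call lost without the second or the third array at 0 h or the second at 10 h (−0.38 to −0.29, adjusted p up to 0.093). Both scalings ended the 10 h calls of miR-9* and miR-322*, and ended no other call at 10 h.

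Hairpin probe sets, which read the precursor, were available for the called stars and were fitted apart. None of them was called at 2, 5 or 10 h, and many were near the background limit. That of miR-214 was above it on all arrays, at 5.33 at 0 h and 5.17 at 10 h, as was that of miR-193, at 6.04 and 6.06. That of miR-455, also above it on all arrays, was 0.41 higher at 5 h (adjusted p = 0.51) and 0.37 higher at 10 h (adjusted p = 0.49). For miR-9, whose star fell, 1 such probe set was 0.56 higher at 10 h (adjusted p = 0.27). Since changes of this size were not called, the lack of calls does not show that precursors stayed level.

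The change of the difference, star minus partner, was then tested for every pair, with adjustment over 119 pairs. The test compares log2 values. Whether the 2 probe sets of a pair respond alike to the same change in molecules was not tested. At 2 h, 17 of the 110 pairs described here were called (15.5%, against 17.6% of all 119 pairs), with the star higher relative to its partner in 14 (against 14.3% of all pairs) and lower in 3 (against 3.36%). At 5 h, 10 pairs were called (9.09%, against 10.9%), 7 with the star higher (8.4% of all pairs) and 3 with it lower (2.52%). At 10 h, 21 pairs were called (19.1%, against 21%), 16 with the star higher (15.1%) and 5 with it lower (5.88%). For any change over time, 24 pairs passed (21.8%, against 24.4%). Since 110 of the 119 pairs are those described here, the background is nearly the same set. Of the 21 pairs at 10 h, the star itself was called in 7, the partner in 15 and both in 3.

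Among the 43 pairs with both strands above the limit on all 12 arrays, 11, 5 and 15 were called at 2, 5 and 10 h. The star was relatively higher in 10, 3 and 10 of them. The 2 strands had opposite signs in 9 of 11, 3 of 5 and 10 of 15. Choosing pairs by a changed difference itself favours opposite signs, so these shares are no separate result. Over all 43 pairs, the changes of the strands had the same sign in 22, 23 and 22 pairs, and Pearson's r between star and partner change was −0.08, 0.19 and 0.26 (Spearman's rho −0.04, 0.06 and 0.12). These correlations are descriptions over pairs that share the same 0 h arrays.

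**Figure D3:**
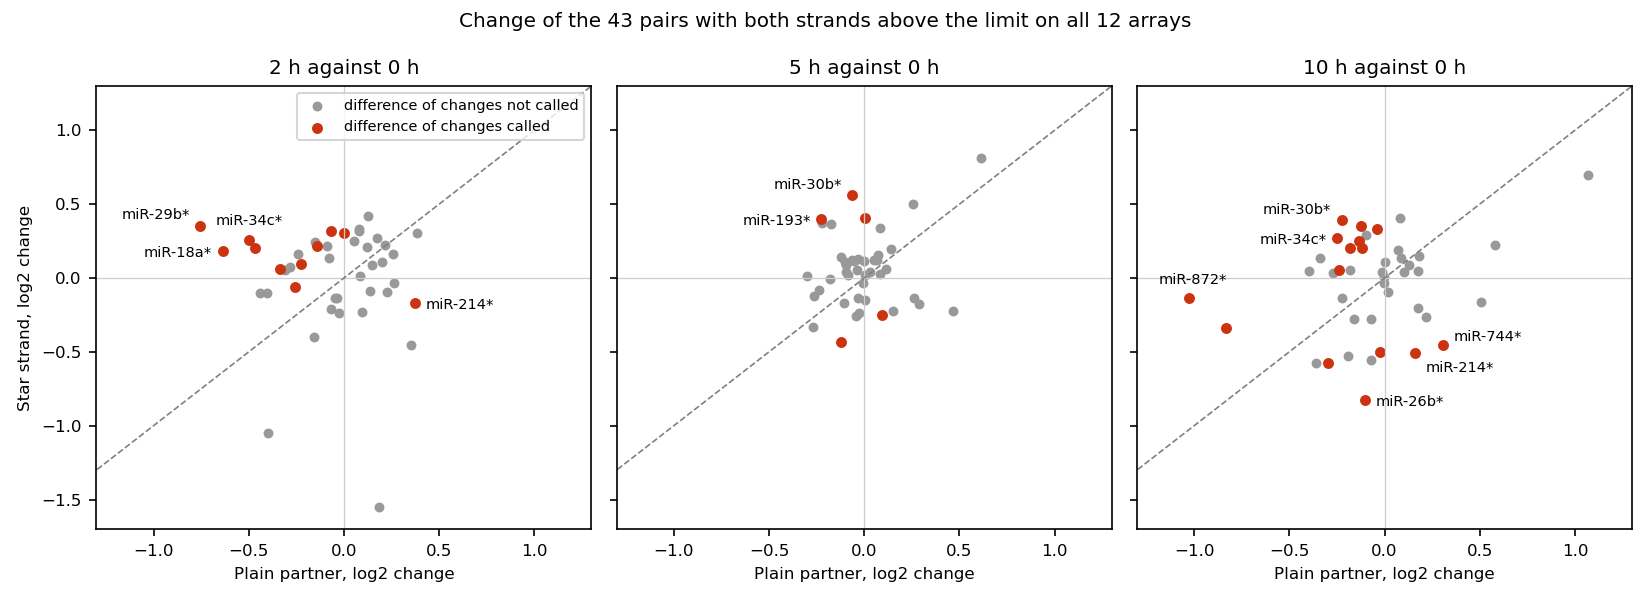
Log2 change against 0 h of the star (y axis) and of its plain partner (x axis) at 2, 5 and 10 h, for the 43 pairs with both strands above the limit on all 12 arrays. Red points are pairs whose difference changed (11, 5 and 15 called), names are given where that change was at least 0.5 (apart from miR-106b* at 2 h, left unnamed for space), and the dashed line marks equal change. MiR-29b* lies highest above the line at 2 h and miR-872* at 10 h.

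In hairpins of the miR-17 family, miR-17, miR-18a and miR-106b fell at 2 h, and of the stars of the family none was called lower. At 2 h miR-106b fell from 11.83, 11.83 and 11.97 to 11.48, 11.32 and 11.42 (−0.47, adjusted p = 1.6e-05), and its star was 9.35, 9.09 and 9.40 before and 9.45, 9.37 and 9.64 after. The difference, star minus partner, rose by 0.67 (SE 0.09, adjusted p = 0.00021), and at 10 h by 0.38 (adjusted p = 0.014, lost without the second array at 0 h at 0.053). For miR-18a* it rose by 0.82 at 2 h (SE 0.10, adjusted p = 0.00011), the plain strand going from 10.94, 10.89 and 10.95 to 10.34, 10.31 and 10.21. At 10 h it rose by 0.39 (adjusted p = 0.019, lost without the second array at 0 h or the third at 10 h, up to 0.074). For miR-93* it rose by 0.38 at 2 h (adjusted p = 0.001), where the star rose and plain miR-93 was 0.07 lower (adjusted p = 0.31), and by 0.32 at 10 h (adjusted p = 0.0042). For miR-17* it rose by 0.19 at 2 h (adjusted p = 0.031), where the plain strand fell by 0.26 and the call was lost without the second array at 0 h or the first or the third at 2 h (up to 0.12), and by 0.37 at 10 h (adjusted p = 0.00068), where the star rose.

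Not every hairpin of this group had that pattern. At 5 h none of the 4 pairs was called, with changes of the difference from −0.05 to 0.19. MiR-19a* and miR-20b* were below the limit on all 12 arrays, while plain miR-19a fell by 0.62 at 2 h (adjusted p = 0.022) and miR-20b by 0.50 (adjusted p = 1.5e-05). Plain miR-20a fell by 0.38 at 2 h (adjusted p = 3.1e-06). MiR-20a*, above the limit on 11 arrays, changed by −0.40 at 2 h (SE 0.36) and was not called (adjusted p = 0.57). MiR-92a, the plain strand of the last hairpin of the cluster, was 0.14 higher at 2 h (adjusted p = 0.097) and rose by 0.22 at 10 h (adjusted p = 0.01), and its star at 4.43 was not called.

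The strands of miR-34c and of miR-29b moved in opposite directions at 2 h. The call of each star's rise was lost without any of 4 of the 6 single arrays, whereas the calls of both pairs stayed. Plain miR-34c fell from 10.58, 10.62 and 10.62 to 10.21, 10.04 and 10.06 (−0.50, adjusted p = 1.5e-05), while miR-34c* rose. On the 3 arrays at 0 h the plain strand was the brighter of the 2, and on the 3 arrays at 2 h the star was. The difference rose by 0.76 at 2 h (SE 0.09, adjusted p = 0.00011) and by 0.52 at 10 h (adjusted p = 0.0017). Plain miR-29b fell from 7.75, 7.90 and 7.62 to 6.77, 7.20 and 7.04 (−0.76, adjusted p = 0.0031), and the difference rose by 1.11 at 2 h (SE 0.17, adjusted p = 0.00047), the largest change of a pair in which both strands were measured. RefSeq placed plain miR-29b at 2 loci, so its probe set does not read the star's hairpin alone.

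MiR-872* and miR-322* gained on a partner that fell at 10 h. MiR-872* measured 8.92, 8.91 and 8.91 at 0 h and 8.87, 8.64 and 8.82 at 10 h (−0.14, adjusted p = 0.22), while plain miR-872 went from 6.51, 6.44 and 6.38 to 5.61, 5.52 and 5.10, a fall of 1.03, or 2.04-fold (adjusted p = 0.0005). The difference rose by 0.89 at 10 h (SE 0.17, adjusted p = 0.003). MiR-322 fell by 0.83 at 10 h (adjusted p = 0.0001), more than its star, and the difference rose by 0.49 (adjusted p = 0.048, lost without 5 of the 6 single arrays, all but the second at 10 h, up to 0.16). MiR-193* gained 0.63 on miR-193 at 5 h (adjusted p = 0.0078) and 0.48 after 10 h (adjusted p = 0.021, lost without the first or second array at 0 h or the third at 10 h, up to 0.082). Both calls of the miR-193* pair were lost without the second arrays at 0 h and 5 h together. Plain miR-193 itself was not called.

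MiR-28* gained 0.30 on miR-28 at 2 h (adjusted p = 0.011) and 0.29 after 10 h (adjusted p = 0.019), in different ways. At 2 h the star rose with the partner at 10.62 both before and after, whereas at 10 h the partner had fallen by 0.24 (adjusted p = 0.0017) and the star was 0.06 above 0 h. Leaving out the second array at 0 h ended both calls. The 2 h call was also lost without the third array at 2 h (up to 0.054), and the 10 h call without the first at 0 h or the third at 10 h (up to 0.064). MiR-140* gained 0.32 at 2 h (adjusted p = 0.013), where plain miR-140 fell by 0.23 (adjusted p = 0.033), and this call was lost without the second array at 0 h or the first or the third at 2 h (up to 0.072). MiR-30a* gained 0.40 at 2 h (adjusted p = 0.0093) and miR-674* 0.36 (adjusted p = 0.011, lost without the third array at 2 h at 0.057). MiR-22* gained 0.40 at 5 h (adjusted p = 0.0087), and miR-30b* 0.63 at 5 h (adjusted p = 0.023) and 0.62 after 10 h (adjusted p = 0.019), calls lost without the first or the third array at 0 h or the second at 5 h, and without the first at 0 h or the third at 10 h (up to 0.096).

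In 5 measured pairs the star lost ground. MiR-214* fell relative to miR-214 by 0.54 at 2 h (SE 0.07, adjusted p = 0.00016), 0.35 at 5 h (adjusted p = 0.0078) and 0.67 after 10 h (adjusted p = 3.1e-05), so the gap widened from −3.23 at 0 h to −3.91 at 10 h. These 3 calls stayed with any 1 array left out. The one at 5 h was lost after quantile normalisation, and also without the second arrays at 0 h and 5 h together. MiR-199b* fell relative to miR-199b by 0.31 at 5 h and 0.28 at 10 h (adjusted p = 0.0017 for both), also with any 1 array left out, and by 0.14 at 2 h (adjusted p = 0.072). A sequence that plain miR-199b shares with a miRNA of another name was not looked for, so its probe set may read further hairpins. MiR-744* (−0.76), miR-26b* (−0.73) and miR-467a-1* (−0.48) fell relative to their partners at 10 h, with adjusted p values of 0.021, 0.045 and 0.042. Those 3 calls were lost without 3, 6 and 5 of the 6 single arrays, the second array at 0 h among them for each. For miR-744* the others were the first and the third at 10 h, and for miR-467a-1* all but the third at 0 h (up to 0.18 over the 3 pairs). Quantile normalisation ended these 3 calls too, together with those of miR-322* at 10 h, miR-22* at 5 h and miR-30a* at 2 h.

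**Figure D4:**
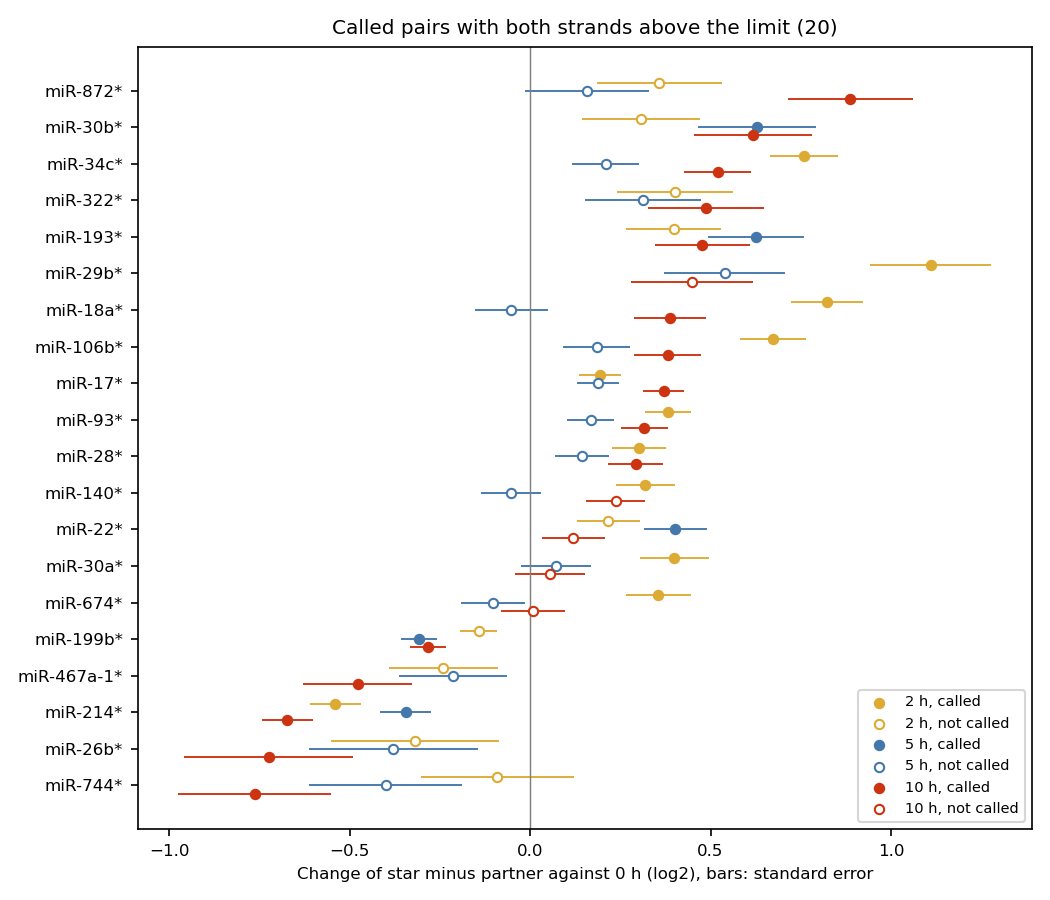
Change of the log2 difference, star minus plain partner, against 0 h (x axis) at 2, 5 and 10 h for the 20 pairs called at any time with both strands above the limit on all 12 arrays. Bars are standard errors of the limma fit, and filled points were called. MiR-214* lies left of 0 at all 3 times, and miR-29b* is farthest to the right at 2 h.

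The other called pairs contained a strand without a measured level. The stars of the epithelial miRNAs miR-200a, miR-200b, miR-200c and miR-203, whose plain strands hold epithelial cells in their state, were at background: 3 of them were below the limit on all 12 arrays, and miR-200b* was above it on 1. Their 4 pairs were called at all 3 times, the plain strand being called each time and the star never. The call of miR-200a* at 10 h was lost without 5 of the 6 single arrays, all but the first at 0 h (0.57 to 0.89, adjusted p up to 0.15), and after quantile normalisation. Plain miR-200c went from 7.70, 7.65 and 7.86 at 0 h to 4.06, 4.30 and 4.54 at 2 h, a fall of 3.44 (adjusted p = 5.0e-07), and was below the limit at 5 and 10 h, at least 25.1-fold lower at both times (adjusted p = 5.5e-10 and 4.7e-10). MiR-200c* meanwhile was 1.80, 1.7 and 1.93 at 0 h and 2.20, 2.01 and 1.51 at 10 h. MiR-200a and miR-203 were below the limit on all arrays and miR-200b was above it on 2 arrays at 0 h, so no fold is given for them. None of the 7 epithelial marker miRNAs was above the limit on all 12 arrays, and their means ranged from 1.69 to 9.21 at 0 h and from 1.53 to 2.06 at 10 h. The part of other cells in these signals was not tested. MiR-141* and miR-183* were the 2 stars of 6 in the epithelial list that stayed above the limit on all arrays. Plain miR-141 was below the limit on all 12 arrays.

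Let-7a*, miR-15b*, miR-376b* and miR-485* were the remaining stars in called pairs, and none was above the limit on more than 2 arrays. Let-7a* lay between 1.87 and 2.55 on the 12 arrays, while let-7a, a miRNA that restrains growth and is among the brightest here at 14.06, fell by 0.15 at 10 h (adjusted p = 0.0042). MiR-376b fell at least 1.49-fold at 10 h (adjusted p = 0.0093), to below the limit, and the call of its pair was lost without the second or the third array at 0 h or the first or the third at 10 h (up to 0.073). The pair of miR-15b*, called at 2 and 5 h, was lost at 5 h without any 1 of the 6 arrays (up to 0.13) and after quantile normalisation.

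Families with few or no calls are given by their levels. Of 8 let-7 stars, 3 were above the limit on all 12 arrays, let-7d* at 7.31, let-7b* at 5.55 and let-7i* at 4.44 at 0 h, and none was called at any time, although let-7d rose by 0.18 at 10 h (adjusted p = 0.0019) and let-7g fell by 0.26 (adjusted p = 0.00099). All 4 miR-30 stars were above the limit, and of these miR-30b* alone was called. Of 13 stars of the imprinted Dlk1-Dio3 region, 10 were above the limit on no array and 2 on all (miR-299* at 5.26 and miR-411* at 4.06 at 0 h), and none was called. MiR-708 has been described as a target of the stress factor CHOP. Its plain strand rose by 1.07 at 10 h (adjusted p = 3.5e-09), and miR-708* was 3.90 at 0 h and 4.60 at 10 h, a difference of 0.70 that was not called (adjusted p = 0.10). The change of the difference between the strands was not called either.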

How the data were processed

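Total RNA of NIH3T3 cells was hybridised to Affymetrix GeneChip miRNA arrays, 3 at each of 0, 2, 5 and 10 h of tunicamycin. The deposited values were log2 intensities per probe set, made by the authors with RMA (background correction, normalisation between arrays and summary of probes), for which no version is given. Array version and annotation build: not given in the sources used here. Another deposited table held the same log2 values (largest difference 0) with means, ratios, fold changes and p-values from GeneSpring, analysis of variance and t-tests, and these comparisons were not used. No sequencing depth exists for arrays, and the 3 arrays per time point limit the precision.

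Of 1412 mouse probe sets, 717 for mature strands were fitted with limma 3.58.1 (R 4.3.3), with 4 time points in one model, a trend of variance with mean and Benjamini-Hochberg adjustment. The 690 hairpin probe sets were fitted apart, and 5 with older names were left out. For 119 hairpins, the star minus the plain log2 value of each array was fitted in the same way. Unless another test is named, every adjusted p comes from these limma fits. Sequences were taken from RefSeq (GRCm38.p6).

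Described by name are the called stars, the 12 brightest, stars brighter than their partner throughout, the called pairs and listed families. The star strands, lists and tests were chosen with earlier results of these data known. Alternatives covered scaling, filters on dim probe sets, variance model, array weights, arrays fitted, replicate number, the methods' t-test and single arrays left out.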

Additional observations from a re-analysis of the deposited data

Results flagged for a closer look

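Changes from 0 h that differed between 2 later time points were looked for among all 112 stars, with limma's test of the difference itself over all 717 mature probe sets. The comparisons share their arrays at 0 h, which cancel in the difference. MiR-28* was lower at 5 h than at 2 h, by −0.42 on the log2 scale (SE 0.06, adjusted p = 0.00013), and lower at 10 h than at 2 h, by −0.25 (adjusted p = 0.01). MiR-455* was higher at 5 h than at 2 h, by 0.91 (adjusted p = 0.016). MiR-31*, not called against 0 h at any time, was higher at 5 h than at 2 h, by 0.19 (adjusted p = 0.016). Also without a call against 0 h, miR-674* was lower at 5 h than at 2 h, by −0.35 (adjusted p = 0.009), and miR-872* lower at 10 h than at 2 h, by −0.22 (adjusted p = 0.048).

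MiR-17* was higher at 10 h than at 2 h, by 0.39 (adjusted p = 0.00041), and than at 5 h, by 0.24 (adjusted p = 0.033). MiR-199b* was lower at 5 h than at 2 h, by −0.22 (adjusted p = 0.035), and at 10 h than at 2 h, by −0.36 (adjusted p = 0.00092). MiR-214* was lower at 10 h than at 2 h, by −0.34 (adjusted p = 0.0028), and than at 5 h, by −0.26 (adjusted p = 0.039). MiR-322* was lower at 10 h than at 2 h, by −0.5 (adjusted p = 0.0014), and than at 5 h, by −0.35 (adjusted p = 0.036).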

How the results depend on the processing

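No call of a star or of a pair reversed under any alternative run. Of 27 calls of stars, 3 held under all of them (miR-17*, miR-199b* and miR-214* at 10 h), and of 48 calls of pairs, 26 did. The following counts of called stars stand beside 9 at each time and 16 for any change. Other settings raised them or left them as they were: 13, 9 and 12 at 2, 5 and 10 h (19 for any change) with only the probe sets brighter than the median one, 13, 9 and 13 (19) with a mean of at least 4, 10, 11 and 12 (20) with array weights, and 11, 9 and 10 (17) with probe sets above the background limit, a choice made after seeing the data. With each array shifted to 1 median they were 2 at 2 h, 2 at 5 h and 6 for any change. Quantile normalisation gave 5 at 5 h. Fitting mature and hairpin probe sets together gave 2 at 2 h and 8 for any change, and a variance model without a trend gave 4 at 2 h, 5 at 5 h and 8 for any change. A fit of only the 2 time points compared gave 4 at 2 h and 1 at 5 h. The methods' t-test (analysis of variance for any change) gave, after adjustment, 1 at 2 h, 0 at 5 h, 4 at 10 h and 7 for any change, and 16, 19, 18 and 26 at an unadjusted p under 0.05. Limma at that unadjusted threshold called 21, 15 and 22 stars at 2, 5 and 10 h.

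Without the second arrays at 0 h and 5 h, a choice made after seeing the data, 3 stars were called at 2 h, 3 at 5 h, and 5 pairs at 5 h instead of 10. With 1 array left out at a time, called stars ranged from 2 to 7 at 2 h and from 2 to 6 at 5 h, against 6 to 9 at 10 h and 10 to 14 for any change. The lowest counts at 2 and 5 h came without the second array at 0 h and the second at 5 h. Called pairs ranged from 13 to 22, 8 to 13 and 11 to 18 at 2, 5 and 10 h, and the 11 came without the second array at 0 h. With the replicate number as a block, 4, 5 and 8 stars and 16, 10 and 17 pairs were called. Over all times the numbers did not pair the arrays, since 4 of 18 same-numbered comparisons had a correlation of deviations over 0.1 (range −0.207 to 0.601). Between 0 h and 5 h, however, all 3 were over it (0.307, 0.601 and 0.192), although the first array at 0 h correlated more with the third at 5 h (0.382). The cause of these differences was not tested. Levels under the background limit, near 3, could not be measured.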

Other observations

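A further probe set with an older name for a star of miR-467a, outside the naming rule and the fits, was above the background limit on all 12 arrays. Its log2 values were 8.19, 8.68 and 8.12 at 0 h, 7.79, 7.88 and 7.97 at 2 h, 7.98, 8.01 and 7.87 at 5 h, then 7.86, 7.89 and 7.83 at 10 h. All arrays after 0 h were below the 3 at 0 h, with the highest value on the second of them, as for miR-467a-1* and miR-467d*.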
